A study of Rattus norvegicus with 13 samples.

Results

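The genes described here are 37 markers of macrophages and of antigen presentation on major histocompatibility complex (MHC) class II, out of 28357 genes in the day 3 tables of a rat corneal RNA sequencing study. They were taken from a given list of gene symbols and set apart by role. There were 9 genes of tissue-resident macrophages, 7 genes of monocytes and the macrophages derived from them, 12 genes of antigen presentation and 9 genes carried widely by leukocytes of the myeloid and other lineages. The roles are labels only and do not separate macrophages by origin. Cd68, for example, is a general marker of phagocyte lysosomes. RNA came from the peripheral cornea and the adjoining limboscleral ring of wild-type male rats of the Lewis strain, aged 2 months. The setting is a model of corneal neovascularization, the growth of blood vessels into the normally vessel-free cornea. The treated group (n = 3 libraries) received systemic spironolactone, a mineralocorticoid receptor antagonist, at 25 mg/kg/day by daily injection under the skin. The control group (n = 3 libraries) received the vehicle, 90% olive oil with 10% DMSO, and both groups were taken at day 3. Since nothing in the labels ties each library to its own animal, the p-values speak for the variation among these 6 libraries, part of which may be technical. The tissue is a mixture of cells, and in such bulk RNA fewer cells of a type and less RNA per cell cannot be told apart.

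Macrophages of the cornea and limbus are of mixed origin: some are long-lived residents that take up debris and carry scavenger receptors and complement C1q, and others arise from blood monocytes recruited after injury. Class II molecules are pairs of an alpha and a beta chain that show peptides from engulfed proteins to CD4+ T cells. They are assembled with the invariant chain Cd74, loaded with peptide with the help of the DM proteins, and switched on as a group by the transactivator Ciita. Ciita binds no DNA itself and acts through factors seated on the S, X and Y boxes of class II promoters; the Y box is an inverted CCAAT sequence bound by NF-Y.

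The class II chain genes are a set in which the shared control region can be read from the promoter, so its sequence is shown here for the 4 chains. RefSeq promoters of the GRCr8 assembly (250 bases before to 50 after the start of each gene) were matched by symbol for 25 of the 37 members. Each window below runs 5′ to 3′ on the strand of the gene. The letters CTGATTGG, a form of the Y box, are in capitals, as are the letters GNNACNG lying 20 to 25 bases before them, where the X box is found.
RT1-Ba: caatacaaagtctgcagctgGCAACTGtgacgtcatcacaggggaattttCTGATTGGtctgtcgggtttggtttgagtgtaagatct
RT1-Bb: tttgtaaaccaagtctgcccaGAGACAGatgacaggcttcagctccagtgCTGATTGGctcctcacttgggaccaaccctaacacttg
RT1-Da: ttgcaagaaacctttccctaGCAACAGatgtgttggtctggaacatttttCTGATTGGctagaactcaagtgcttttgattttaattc
RT1-Db1: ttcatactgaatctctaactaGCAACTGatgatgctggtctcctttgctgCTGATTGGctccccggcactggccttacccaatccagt
The windows lie at chr20:4576961-4577048 on the plus strand for RT1-Ba, chr20:4604145-4604232 on the minus strand for RT1-Bb, chr20:4515313-4515400 on the plus strand for RT1-Da and chr20:4560208-4560295 on the minus strand for RT1-Db1. CTGATTGG began 46 to 83 bases before the gene start, and the gap between the motifs was 22 or 23 bases. Read on both strands, CTGATTGG was present in 3.50% of 33469 promoters. Among the members it was in the 4 chain promoters and in that of Cd68. The spaced pair of motifs was present in 0.12% of all promoters and, among the matched members, in the 4 chain genes only. The letters of the spaced pair were chosen after these promoters had been read. A match is a description of the letters and not a measured binding site.

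The 6 libraries held 18.2 to 25.3 M estimated counts. Levels are the authors' TPM values (reads per length of transcript, scaled to a common total), and fold changes are from edgeR on the estimated counts, as spironolactone minus vehicle on the log2 scale. The cornea label was checked against 10 epithelial markers, all of which were measured. Krt12, the keratin of differentiated corneal epithelium, was low, at 7.23 to 10.9 TPM, while Krt5 was at 3181 to 7708 TPM. The markers thus show epithelium, and the low Krt12 by itself marks the cornea only weakly. Pax6, on the same list, was at 181 to 238 TPM. Of the keratocyte genes of the corneal stroma, Kera was at 26.0 to 74.3 TPM and Aldh3a1 at 254 to 420 TPM. Genes of neighbouring tissues were also present. The TPM of 14 skeletal muscle genes summed to 236 to 423 with spironolactone and 818 to 1838 with vehicle, and that of 12 retinal genes to 290 to 3847 and 4629 to 5177. Lens genes summed to 101 to 126 TPM with spironolactone and 132 to 1126 with vehicle, and mitochondrial genes held 4.17% to 4.85% and 5.13% to 5.48% of the counts. The groups did not overlap in any of these 4 values. For single lens genes they mostly did, in counts scaled to a common library total. Of 8 tested lens genes, 6 overlapped and 2 were lower without overlap, against 16.1% of all genes lower. Cryaa was at 16.4 TPM in spironolactone replicate 1 and 13.4 TPM in vehicle replicate 1. Cryab did not overlap, at 88.5 to 91.3 TPM with spironolactone and 99.9 to 210 TPM with vehicle. The 10 epithelial markers summed to 15478 to 18271 TPM with spironolactone and 8990 to 12543 with vehicle. DESeq2 called 8 of them higher, against 5.76% of all genes, and edgeR called 0. The part of these differences in the macrophage values was not tested.

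Macrophage and class II transcripts were on average lower with spironolactone, by a small amount, and the libraries of the groups overlapped. The TPM of all members summed to 3951, 3179 and 3410 in spironolactone replicates 1 to 3, and to 4785, 4595 and 3801 in vehicle replicates 1 to 3. Spironolactone replicate 1 therefore lay above vehicle replicate 3. The means were 3513 ± 396 and 4394 ± 522 TPM (SD, n = 3), a ratio of 0.80. Of the 37 members, 35 passed the filter on low counts and 34 of these had a negative log2 fold change, against 51.6% of all 14762 genes tested. Their median log2 fold change was -0.27, where that of all genes was -0.01.

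No member passed the edgeR test. The edgeR quasi-likelihood test with Benjamini-Hochberg adjustment called 0 of 35 members and 0% of all genes, the lowest adjusted p of any gene being 0.0649. At an unadjusted p under 0.05, 13 members were lower and 0 higher, against 10.4% of all genes lower and 12.2% higher. DESeq2 called 1 member, Adgre1, as lower and 0 as higher, against 3.34% of all genes lower and 5.76% higher. limma-voom called 0 members and 0% of all genes. In TMM-scaled CPM (counts scaled to a common library total), the 3 spironolactone libraries lay below the 3 vehicle libraries for 5 members (Adgre1, Lyz2, Cd40, Spi1 and Tyrobp) and above them for 0, against 16.1% of all genes below and 16.0% above. In TPM the count below was 10, against 23.1% of all genes; this scale was added after the data had been seen.

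The counts depended on single libraries. Leaving out spironolactone replicate 1 gave 21 members lower at an unadjusted p under 0.05 and 27 whose groups did not overlap, against 10.6% and 23.4% of all genes. Leaving out vehicle replicate 3 gave 23 and 28 members, against 10.6% and 25.8% of all genes. Leaving out spironolactone replicate 2 gave 2 and 5 members, against 10.8% and 22.5% of all genes, and leaving out spironolactone replicate 3 gave 6 and 5, against 10.4% and 19.9%. Leaving out vehicle replicate 1 gave 2 and 5 members, against 6.27% and 19.6% of all genes, and leaving out vehicle replicate 2 gave 4 and 6, against 5.17% and 19.1%. In the fits without spironolactone replicate 2 or vehicle replicate 1, the share of members at that unadjusted p was below the share of all genes. The edgeR test called 0 members in each of these 6 fits. The plot of role group medians shows the arrangement: in each of the 4 role groups the median member of spironolactone replicate 1 stood above that of vehicle replicate 3. With each member centred on its mean over the 6 libraries, the medians over all members in log2(CPM + 1) were 0.04, -0.31 and -0.15 in spironolactone replicates 1 to 3 and 0.25, 0.21 and -0.05 in vehicle replicates 1 to 3.

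**Figure D1:**
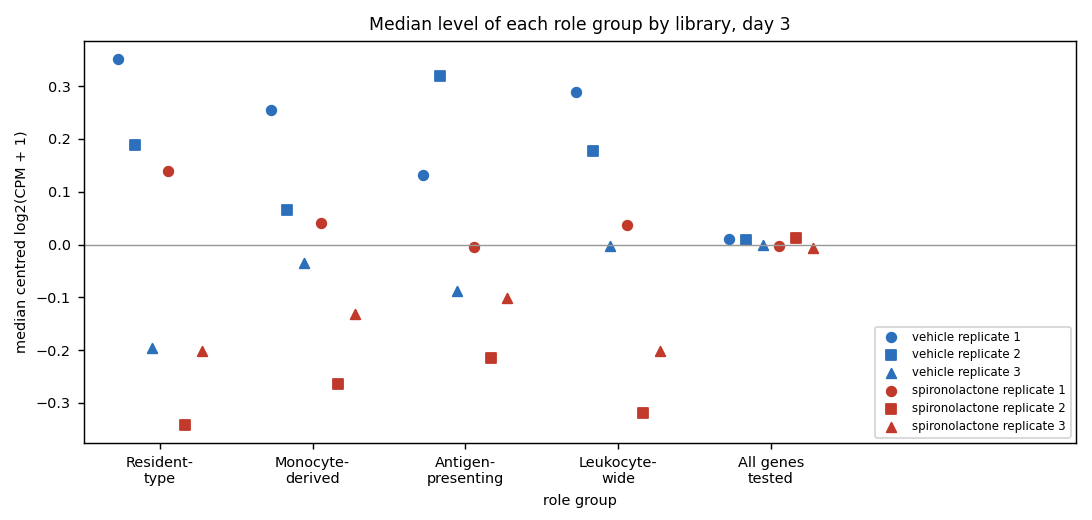
Median over the tested members of each role group of centred log2(CPM + 1), y axis, for each of the 6 day 3 libraries (colour, treatment; symbol, replicate), with the median over all tested genes at the right. Vehicle replicates 1 and 2 are the highest libraries in each role group, and spironolactone replicate 1 stands above vehicle replicate 3 in each role group.

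The resident group held Adgre1 (the F4/80 antigen of mature macrophages), the scavenger and lectin receptors Cd163, Mrc1 and Siglec1, the C1q chains C1qa, C1qb and C1qc, the membrane protein Ms4a7 and the lipid-sensing receptor Trem2. All 9 were tested, 8 had a negative log2 fold change, and the median was -0.28. Adgre1 was at 15.7, 15.2 and 16.5 TPM in spironolactone replicates 1 to 3 and at 20.6, 20.6 and 19.6 TPM in vehicle replicates 1 to 3. All 3 spironolactone libraries were lower than all 3 vehicle libraries, and the libraries within a group were close, with a pooled SD of 0.05 in log2(CPM + 1). Its log2 fold change was -0.30 (SE 0.06) with an edgeR adjusted p of 0.0746 and a DESeq2 adjusted p of 0.0175; over the alternatives its adjusted p ran from 0.0175 to 0.268. It is the member that DESeq2 called.

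The C1q chains, Mrc1, Cd163 and Ms4a7 had log2 fold changes of similar size with a wider spread between libraries. C1qa, which had the highest TPM of the group, was at 252, 176 and 194 TPM with spironolactone and 305, 284 and 203 TPM with vehicle. Spironolactone replicate 1 lay above vehicle replicate 3, so the groups overlapped, and the log2 fold change of -0.28 (SE 0.19) had an adjusted p of 0.401. C1qb and C1qc likewise were lowest in spironolactone replicate 2 and highest in vehicle replicate 1, and their log2 fold changes were -0.34 (SE 0.22) for C1qb and -0.28 (SE 0.19) for C1qc. The 3 chains make up 1 protein, C1q, the recognition unit that starts the classical complement pathway.

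Mrc1, a mannose receptor, was at 65.5, 48.3 and 52.0 TPM with spironolactone and 79.0, 71.7 and 57.4 TPM with vehicle. Its groups overlapped and its log2 fold change was -0.27 (SE 0.15, adjusted p = 0.334). Cd163, the haemoglobin scavenger receptor, stood at -0.27 (SE 0.22) on the log2 fold change scale, and Ms4a7 at -0.39 (SE 0.22). Both had overlapping groups.

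Trem2 and Siglec1 had the least negative values of the group. Trem2 had the only positive log2 fold change among the tested members, 0.16 (SE 0.23, adjusted p = 0.699), at 4.87, 5.29 and 4.95 TPM with spironolactone against 6.07, 3.29 and 4.72 TPM with vehicle. The vehicle libraries spanned the spironolactone ones. Siglec1, the sialic acid-binding CD169, stood at a log2 fold change of -0.0046 (SE 0.25), its sign turned in 6 of the alternatives, and it was highest in spironolactone replicate 1 at 7.02 TPM. These are low transcripts, each below 8 TPM in every library.

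**Figure D2:**
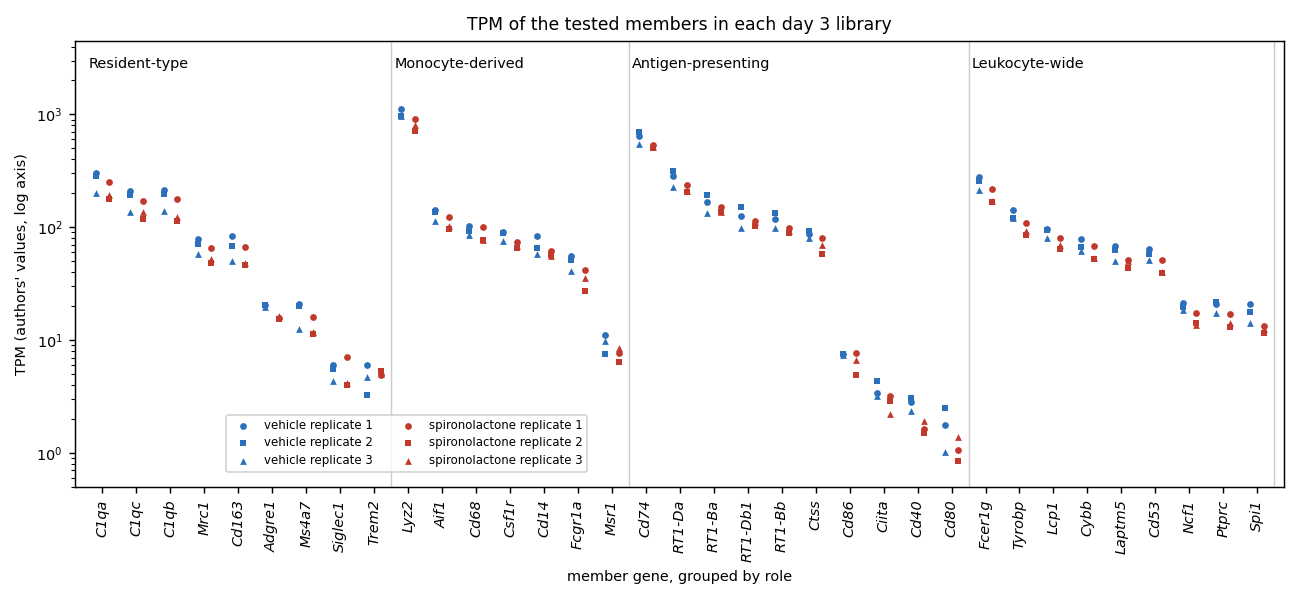
TPM (log axis) of the 35 tested members in each library, ordered by mean TPM within each role group, with vehicle in blue on the left and spironolactone in red on the right of each gene. The levels span from Lyz2, at 709 to 1114 TPM, down to Cd80, at 0.84 to 2.49 TPM, and most pairs of groups overlap.

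The monocyte-derived group held Csf1r (the receptor for the macrophage growth factor CSF1), the lysozyme gene Lyz2, the endotoxin co-receptor Cd14, the high-affinity IgG receptor Fcgr1a, the scavenger receptor Msr1, the lysosomal protein Cd68 and the actin-binding protein Aif1 (IBA1). All 7 had a negative log2 fold change, with a median of -0.24, and edgeR called 0. Csf1r was at 73.4, 65.7 and 68.0 TPM with spironolactone and 91.6, 88.8 and 75.5 TPM with vehicle. In TPM every spironolactone library was lower than every vehicle library, while in TMM-scaled CPM the groups overlapped. The log2 fold change was -0.24 (SE 0.09, adjusted p = 0.164).

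Lyz2 was the most abundant member, at 909, 709 and 809 TPM with spironolactone and 1114, 970 and 968 TPM with vehicle. Its groups did not overlap on either scale, with vehicle replicates 2 and 3 close together. The log2 fold change was -0.27 (SE 0.10, adjusted p = 0.194). Lysozyme genes have close copies between which the authors' counting could divide reads, so its level is uncertain to that extent. Fcgr1a, at a log2 fold change of -0.44 (SE 0.18; its adjusted p was 0.210), was the most negative of the group and lay at 27.4 to 41.4 TPM with spironolactone and 40.6 to 55.7 TPM with vehicle. Msr1, Aif1 and Cd14 had log2 fold changes of -0.28, -0.22 and -0.20. Cd68, a general marker of phagocyte lysosomes, had a log2 fold change of -0.08 (SE 0.12), the closest to 0 of the group, at 76.6 to 99.6 TPM against 84.6 to 102.7 TPM.

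**Figure D3:**
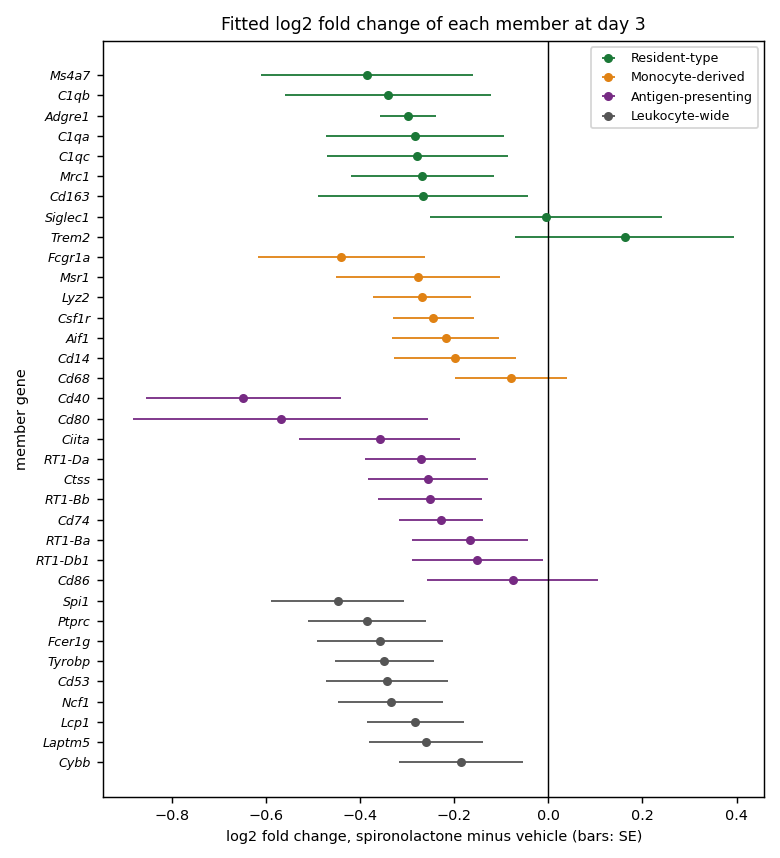
Fitted log2 fold change (x axis, spironolactone minus vehicle) of each tested member, with bars of 1 SE, coloured by role group. Adgre1 has the narrowest bar (SE 0.06), Cd40 the most negative value (-0.65), and Trem2 is the only member to the right of 0.

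The antigen-presenting group held the class II chains RT1-Ba and RT1-Bb (the rat counterpart of HLA-DQ) and RT1-Da and RT1-Db1 (that of HLA-DR), the invariant chain Cd74, the transactivator Ciita, the protease Ctss that trims the invariant chain, the DM chains RT1-DMa and RT1-DMb, and the costimulatory proteins Cd40, Cd80 and Cd86. Of the 12 genes, 10 were tested and all 10 had a negative log2 fold change, with a median of -0.25. edgeR called 0 of them. Cd74, the most abundant of the group, was at 536, 508 and 510 TPM with spironolactone and 649, 699 and 546 TPM with vehicle. In TPM every spironolactone library was below every vehicle library, by a margin of under 10 TPM between spironolactone replicate 1 and vehicle replicate 3, and in TMM-scaled CPM the groups overlapped. The log2 fold change was -0.23 (SE 0.09, adjusted p = 0.196).

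The 4 class II chains whose promoters are shown above had log2 fold changes between -0.27 and -0.15. RT1-Da had the highest TPM of the chains, at 238, 207 and 211 TPM with spironolactone and 286, 313 and 227 TPM with vehicle. Its groups overlapped, and its log2 fold change was -0.27 (SE 0.12, adjusted p = 0.230). On that scale RT1-Bb stood at -0.25 (SE 0.11), RT1-Ba at -0.17 (SE 0.12) and RT1-Db1 at -0.15 (SE 0.14). For each of the 4 chains and for Cd74, vehicle replicate 2 was the highest library and vehicle replicate 3 the lowest of the vehicle libraries. The chains belong to a multigene family, so reads may be divided between copies in the authors' counting, and RT1-Db2 was listed with 1 to 6 estimated counts per library.

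Ciita was expressed at a low level, at 3.22, 2.86 and 2.20 TPM with spironolactone and 3.37, 4.32 and 3.18 TPM with vehicle. Spironolactone replicate 1 lay just above vehicle replicate 3. Its log2 fold change was -0.36 (SE 0.17, adjusted p = 0.266), and that of Ctss was -0.26 (SE 0.13, adjusted p = 0.282). The costimulatory receptor Cd40, which is engaged by CD40 ligand on T cells, had the most negative log2 fold change of all members. It was at 1.64, 1.49 and 1.93 TPM with spironolactone and 2.82, 3.08 and 2.37 TPM with vehicle, and its groups did not overlap. The log2 fold change was -0.65 (SE 0.21, adjusted p = 0.138). The CD28 ligands had log2 fold changes of -0.57 (SE 0.31) for Cd80, at 0.84 to 2.49 TPM over the 6 libraries, and of -0.08 (SE 0.18) for Cd86, whose 3 vehicle libraries were within 7.37 to 7.48 TPM.

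RT1-DMa and RT1-DMb, which exchange peptides on class II molecules, were listed with 0 or 1 estimated count in every library and were not tested. Brd2, a gene used by nearly all cells that lies close to them on chromosome 20 in RefSeq order, was listed with 0 to 2 estimated counts. These values were therefore not read as levels of the DM genes. RT1-DOa and RT1-DOb, which code for the modulator of DM, had 28 to 47 and 19 to 26 estimated counts.

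The leukocyte-wide group held the phosphatase Ptprc (CD45), the lysosomal protein Laptm5, the myeloid transcription factor Spi1 (PU.1), the signalling adaptors Tyrobp (DAP12) and Fcer1g, the tetraspanin Cd53, the oxidase subunits Cybb and Ncf1 and the actin-bundling protein Lcp1. All 9 had a negative log2 fold change, with a median of -0.34. At an unadjusted p under 0.05, 7 of the 9 were lower. The counts were 1 of 9 for the resident, 3 of 7 for the monocyte-derived and 2 of 10 for the antigen-presenting genes, against 10.4% of all genes. The difference between role groups was not tested, and the total of 13 moved to between 2 and 23 on leaving out 1 library. edgeR called 0. Tyrobp was at 109, 86.1 and 93.2 TPM with spironolactone and 141, 122 and 121 TPM with vehicle. Its groups did not overlap, and its log2 fold change was -0.35 (SE 0.11, adjusted p = 0.124).

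Spi1, which drives the myeloid programme, was at 13.2, 11.5 and 12.4 TPM with spironolactone and 21.0, 17.6 and 14.2 TPM with vehicle. Its groups did not overlap and its log2 fold change was -0.45 (SE 0.14, adjusted p = 0.135). Fcer1g, the most abundant of this group, was at 219, 167 and 170 TPM against 278, 257 and 212 TPM. Here spironolactone replicate 1 exceeded vehicle replicate 3, and the log2 fold change was -0.36 (SE 0.13, adjusted p = 0.186). The other 6 had log2 fold changes from -0.38 for Ptprc (SE 0.12) to -0.19 for Cybb (SE 0.13).

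Members were next expressed relative to the leukocyte-wide group, as the log2 of each TPM over the geometric mean TPM of those 9 genes in the same library. That mean was 48.0, 38.2 and 40.3 TPM with spironolactone and 61.2, 56.0 and 48.5 TPM with vehicle. The 9 genes include myeloid genes that macrophages also carry, such as Spi1. Group differences near 0 are therefore partly built in for macrophage genes, and Cybb is itself part of the mean. On this scale the median differences were 0.06 for the resident, 0.09 for the monocyte-derived and 0.08 for the antigen-presenting genes. A related scaling used the summed counts of those 9 genes as library size in the edgeR fit. A sum gives the genes with most counts more weight than a geometric mean does, so the 2 scales are not the same. The medians in that fit were 0.01, 0.05 and 0.03, with an SE of 0.175 to 0.347 for the single genes. These SEs belong to single genes in that fit and do not measure the error of a median. No difference between role groups was tested. The groups did not overlap for 5 members, all higher relative to that mean (Siglec1, Trem2, Cd68, Aif1 and Cybb), against 32.8% of all genes higher. No member was lower on this scale without overlap, against 1.72% of all genes. Cd68 had a relative difference of 0.24 and Trem2 of 0.53. Cd40 and Cd80 had the most negative relative differences, -0.32 and -0.23, with overlapping groups. The C1q chains differed by -0.02 to 0.06. These relative values are a description without a test.

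**Figure D4:**
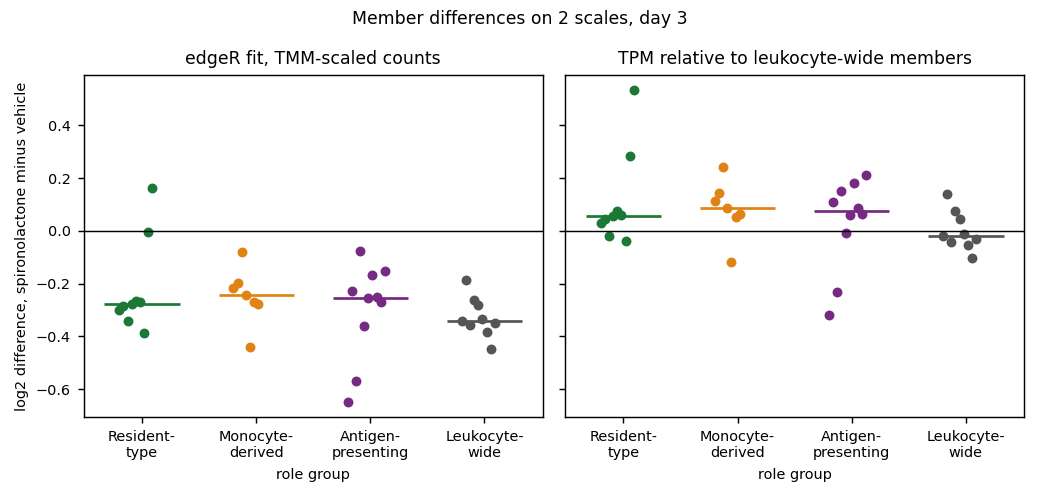
Differences of the tested members (points; lines, medians of the role groups) on the edgeR log2 scale at the left and relative to the geometric mean TPM of the leukocyte-wide members at the right. The medians of the other 3 role groups move from between -0.28 and -0.24 to between 0.06 and 0.09.

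Related genes that are not members were read from gene lists by function, in none of which edgeR called a gene in either direction. The counts at an unadjusted p under 0.05 are read against 10.4% of all genes lower and 12.2% higher. They were 1 lower and 0 higher of 13 tested resident macrophage genes, 6 and 1 of 14 inflammatory monocyte genes, 2 and 1 of 9 in the CSF1 axis, and 3 and 2 of 22 in class II control. They were 0 and 1 of 11 for class I, 2 and 1 of 7 for the oxidase, 3 and 2 of 14 for Fc receptor signalling, 2 and 0 of 15 for complement and 1 and 0 of 6 for costimulation. DESeq2 calls named for these lists are read against its 3.34% of all genes lower and 5.76% higher. Among 16 other resident macrophage genes, 13 were tested, 11 had a negative log2 fold change and the median was -0.12. Cx3cr1, the fractalkine receptor, had a fitted log2 difference of -0.36 (SE 0.13, adjusted p = 0.169). Among 18 matched genes of inflammatory monocytes, 14 were tested with a median of -0.55. Lgals3, a galectin also made by epithelium, was called higher by DESeq2, with a log2 fold change of 0.35 (SE 0.05) and an edgeR adjusted p of 0.0649. Cd36, a lipid scavenger receptor, had a fitted log2 difference of -0.76 (SE 0.22, adjusted p = 0.114). In the list of the CSF1 axis, which includes Csf1r, 9 of 10 genes were tested with a median of -0.11. DESeq2 called Csf2rb, the shared receptor chain for GM-CSF, as lower (log2 fold change -1.02) and Cebpa, a factor of myeloid and epithelial cells, as higher (0.53), while edgeR called neither.

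The control and loading genes of class II, 24 in number, had a median log2 fold change of -0.07 over 22 tested. Cd83, which stabilises class II at the surface of dendritic cells, was at 20.9, 28.1 and 22.0 TPM with spironolactone and 40.9, 36.4 and 38.5 TPM with vehicle. Its groups did not overlap, and its log2 fold change was -0.65 (SE 0.11), with an edgeR adjusted p of 0.0649 and a DESeq2 adjusted p of 7.24e-05. Rfxap and Ifng were listed at 0 in every library. For class I presentation, 11 of 12 genes were tested and the median was -0.02. Tapbp, tapasin, had a fitted log2 difference of 0.19 (SE 0.07, adjusted p = 0.194).

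Over 7 other oxidase genes the median was -0.11, and DESeq2 called Rac2, the leukocyte GTPase of the oxidase, as lower (log2 fold change -0.43, SE 0.10). Over 14 tested genes of Fc receptor and DAP12 signalling it was -0.18, and DESeq2 called the kinase Syk as higher (0.25, SE 0.06). Over 15 other complement genes it was -0.14. Over 6 tested costimulation genes it was -0.24, with Havcr2 (TIM-3) at -0.66 (SE 0.21, adjusted p = 0.141).

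Markers of other cell types were measured in the same libraries. All 7 tested neutrophil genes of 13 had a negative log2 fold change (median -0.62), and DESeq2 called 3 of them lower against 3.34% of all genes. The summed TPM of the 13 was 199 to 426 with spironolactone and 256 to 601 with vehicle. Most of that sum was Lcn2, at 134 to 322 and 157 to 476 TPM. Ltf was at 0, and Mpo, Elane, Camp, Ngp and Cxcr1 lay at 0 to 0.49 TPM and were not tested. All 10 tested T and NK cell genes of 13 were negative (median -0.45), at a summed 21.6 to 38.1 against 30.5 to 57.3 TPM. Of 13 dendritic cell genes, 11 were tested and 7 were negative (median -0.09), at a summed 120 to 151 against 139 to 184 TPM. The 7 microglia genes had a summed TPM of 321 to 380 against 351 to 370, and 6 were negative (median -0.16). Of the 12 blood endothelial genes, 11 were negative (median -0.42) and DESeq2 called 5 lower against the same 3.34%, at a summed 284 to 346 against 352 to 478 TPM. The 8 keratocyte genes had a median of -0.02, at a summed 5809 to 6068 against 5967 to 6303 TPM. The part of these cells in the member values was not tested. Single libraries stood apart in tissue genes. Spironolactone replicate 3 had a retinal sum of 290 TPM, the lowest, and a summed member TPM of 3410, inside the range of the spironolactone group. Vehicle replicate 3 had a lens sum of 1126 TPM, against 132 and 201 in the other vehicle libraries, and the lowest summed member TPM of the vehicle group, 3801. The part of the lens genes in that value was not tested.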

How the data were processed

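RNA was sequenced from 13 libraries, of which the 6 of day 3 were used; the 7 of day 7 carry gene IDs that no table used here pairs with symbols and were not analysed here. Tools listed in the submitters' processing notes, with no role given, are RSEM 1.2.28, STAR 2.5.3a, edgeR 3.28.0, DESeq2 1.26.0, Picard, DRAGEN, fastp and FastQC; the rat builds listed are Rnor_6.0 and rn6. Per the file headers, the authors deposited expected counts, which were rounded for testing, and TPM values, used for levels. One row names no gene, held 0.12% to 0.181% of counts and was left out. The sources used here do not state a strand setting, so overlapping and antisense genes may share reads.

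Genes were kept by edgeR's filter with a minimum count of 10 and scaled by TMM. edgeR 4.0.16 in R 4.3.3 gave robust quasi-likelihood tests of spironolactone against vehicle with Benjamini-Hochberg adjustment over 14762 genes at 0.05; SE is the log2 fold change over the square root of F. DESeq2 1.42.0 (no adjusted p for 864 genes), limma-voom 3.58.1, RLE size factors, other filters, length offsets, limma on log2(TPM + 0.1), a TMM without tissue genes, a replicate block and left-out libraries were alternatives. On simulated counts over 14662 genes edgeR recovered 64% of 2-fold and 44.4% of 1.5-fold changes with 9.24% of calls false, and DESeq2 73% and 56.6% with 26.3% false. The simulated counts were drawn gene by gene, with no shift shared by genes of a library. Those shares therefore need not hold for the real libraries. Members and lists were chosen with earlier results of these data known. Of 269 listed genes, 258 were matched, 4 by a synonym, and 218 tested. Values per library are given, by rule, for the 2 smallest p and the highest TPM in each role group and for members called by either tool; Trem2, RT1-Da, Ciita and the per-library values of Cd83 were added after their values were seen, as were the genes described by range. Of each related list, up to 2 genes with the smallest p could be named, and some of these are not reported here. Libraries of a group did not agree within sampling noise (chi-square per gene 7.90 to 23.2).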

Additional observations from a re-analysis of the deposited data

How the results depend on the processing

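The negative direction was kept in every alternative run by 31 of the 35 tested members; the other 4 turned. Siglec1 was at 0.00295 with DESeq2 and 0.00060 with RLE size factors. Over the fits that left out 1 library, Siglec1 ran from -0.316 to 0.147, Trem2 from -0.0267 to 0.385, RT1-Db1 from -0.266 to 0.0166 and Cd86 from -0.263 to 0.0603; Cd86 was at 0.0221 without replicates 3. The median log2 fold change of the members ran from -0.38 to -0.20 over the left-out libraries and was -0.27 under the replicate block. In that block fit 16 members had an unadjusted p under 0.05, against 10.4% of all genes lower. Between same-numbered libraries of the 2 groups, deviations from the group means had r of 0.11, -0.09 and 0.06. Other pairs of libraries ran from -0.17 to 0.10. With 3 libraries a group, these values cannot settle whether the numbers pair the libraries. Genes called numbered 1344 with DESeq2, 148 with no filter, 1040 without replicates 3 of both groups and 0 to 781 over the left-out libraries. Members called lower numbered 1 with DESeq2, against 3.34% of all genes, and 1 without replicates 3, against 387 of 14817 genes. Each time the member was Adgre1. Members at an unadjusted p under 0.05 ranged from 2 to 23 over left-out libraries, against 5.17% to 10.8% of all genes lower. Those with groups that did not overlap, lower, ranged from 5 to 28 over left-out libraries, against 19.1% to 25.8% of all genes. They numbered 28 without replicates 3, against 30.3% of all genes. In TPM, a scale chosen after seeing the data, they numbered 10, against 23.1%. limma on log2(TPM + 0.1) moved the median of all genes to -0.07. The cause of these shifts was not tested. With 3 libraries a group, an exact test on 1 value cannot go below 0.1.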
